A study of Mus musculus with 6 samples.

Results

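The genes described here encode the mTOR complexes and the proteins that relay amino acid supply to them, in mouse splenic CD4+ T cells treated with an inhibitor of the kinase Mapk13. The members are 38 listed gene symbols (mTOR complex, TSC, Rag, folliculin, Ragulator and GATOR subunits, Sestrins, Castors, lysosomal transporters and S6 kinases) among the 35602 genes of the count table, and all 38 were found and passed the filter on low counts. CD4+ T cells from spleen were stimulated with antibodies to CD3 and CD28 for 72 h, with either MAPK13-IN-1, a small-molecule inhibitor of Mapk13 (a p38 family kinase), or its solvent DMSO in the medium. Each group holds 3 libraries. Replicates 2 and 3 of both groups, labelled as WT, were deposited as read counts, and their labels place the addition of 17.1 μM inhibitor after day 1 of stimulation. Replicate 1 of each group was made with another library kit, has no genotype or dose in its labels, and was deposited as normalized values read here as FPKM (fragments scaled by transcript length and library size). The labels do not say whether replicates came from separate mice or cultures, so the p-values measure the spread between these libraries, which may be technical. Whole cultures were measured in bulk, where fewer cells of a type and less RNA per cell cannot be told apart.

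mTORC1 is a protein kinase complex that drives protein synthesis and cell growth when growth factor signals and amino acids are both present. Amino acids act at the lysosome, where Rag GTPase heterodimers, anchored by the Ragulator complex, bring mTORC1 to its activator Rheb. The GATOR1 complex switches RagA and RagB off, GATOR2 opposes GATOR1, and Sestrins and Castors hold GATOR2 back when leucine or arginine is scarce, while the TSC complex switches Rheb off. T cells raise mTORC1 activity and amino acid uptake on activation, and need both for growth and effector differentiation. Transcripts, not kinase activity, were measured here.

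Total counts were 26874805 and 28487403 with DMSO and 33854760 and 32617702 with MAPK13-IN-1, of which the members took 0.223% to 0.236%. CPM values below are read counts scaled to library size by TMM, and intervals in the text cover 95%. The markers of several cell types moved with the treatment. Summed levels of marker lists are CPM scaled by library totals alone. The sum of 7 CD4 T cell markers was 1600 and 1620 in DMSO and 947 and 1060 with MAPK13-IN-1, with 6 of the 7 lower and Cd4 itself at a log2 fold change of 0.00. The sum of 9 B cell markers was 872 to 892 in DMSO and 1230 in both MAPK13-IN-1 libraries, with 7 of the 9 higher and at least 135 counts for each in every library. Macrophage and neutrophil markers (11.6 to 13.2 against 36.8 to 44.3), erythroid markers (7.20 to 7.52 against 67.1 to 94.4) and CD8 T cell markers (10.4 to 11.2 against 5.76 to 8.16) were low. Of 10 macrophage and neutrophil markers 1 was at 0 in all 4 libraries, and of 7 tested 6 were higher. Of 7 erythroid markers tested 6 were higher, and both CD8 markers were lower. In the replicate 1 pair the summed values went from 1020 to 934 FPKM for the CD4 T cell list, from 44.8 to 33.4 FPKM for the B cell list, from 3.47 to 9.38 FPKM for the macrophage and neutrophil list, from 0.931 to 1.94 FPKM for the erythroid list and from 3.49 to 8.39 FPKM for the CD8 list, so the B cell and CD8 lists went opposite ways to the counts. The part of these shifts in the changes of the members was not tested.

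Members moved in both directions with MAPK13-IN-1. Of the 38 genes, 12 were higher, 14 were lower and 12 did not pass an adjusted p-value of 0.05 from edgeR's quasi-likelihood test. Among all 16269 genes tested, 31.5% were higher and 32.3% were lower (63.8% in either direction), so the share of members called is close to that of all genes. A log2 fold change of at least 0.5 was found for 7 members upward and 8 downward, beside 22.4% and 22.2% of all genes. Changes over 1 were found for 3 members upward and 2 downward, beside 13.0% and 10.4% of all genes. The median log2 fold change was −0.11 over the members, with a range of −1.09 to 1.37, and 0.01 over all genes tested. Values of the 2 groups did not overlap for 31 of the 38 members, beside 83.0% of all genes tested. Grouped by what the encoded proteins do to mTORC1, 8 of the 21 genes whose products promote its activity were higher and 8 were lower. Of the 14 whose products restrain it, 3 were higher and 5 were lower. Each side held members of both directions. In the replicate 1 pair, which has no test, 11 of the 14 restraining genes were higher and 3 lower, and 11 and 10 of the promoting genes, beside 9520 higher and 6223 lower among all genes tested. In the counts several paralogs or partners within a complex went opposite ways.

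**Figure D1:**
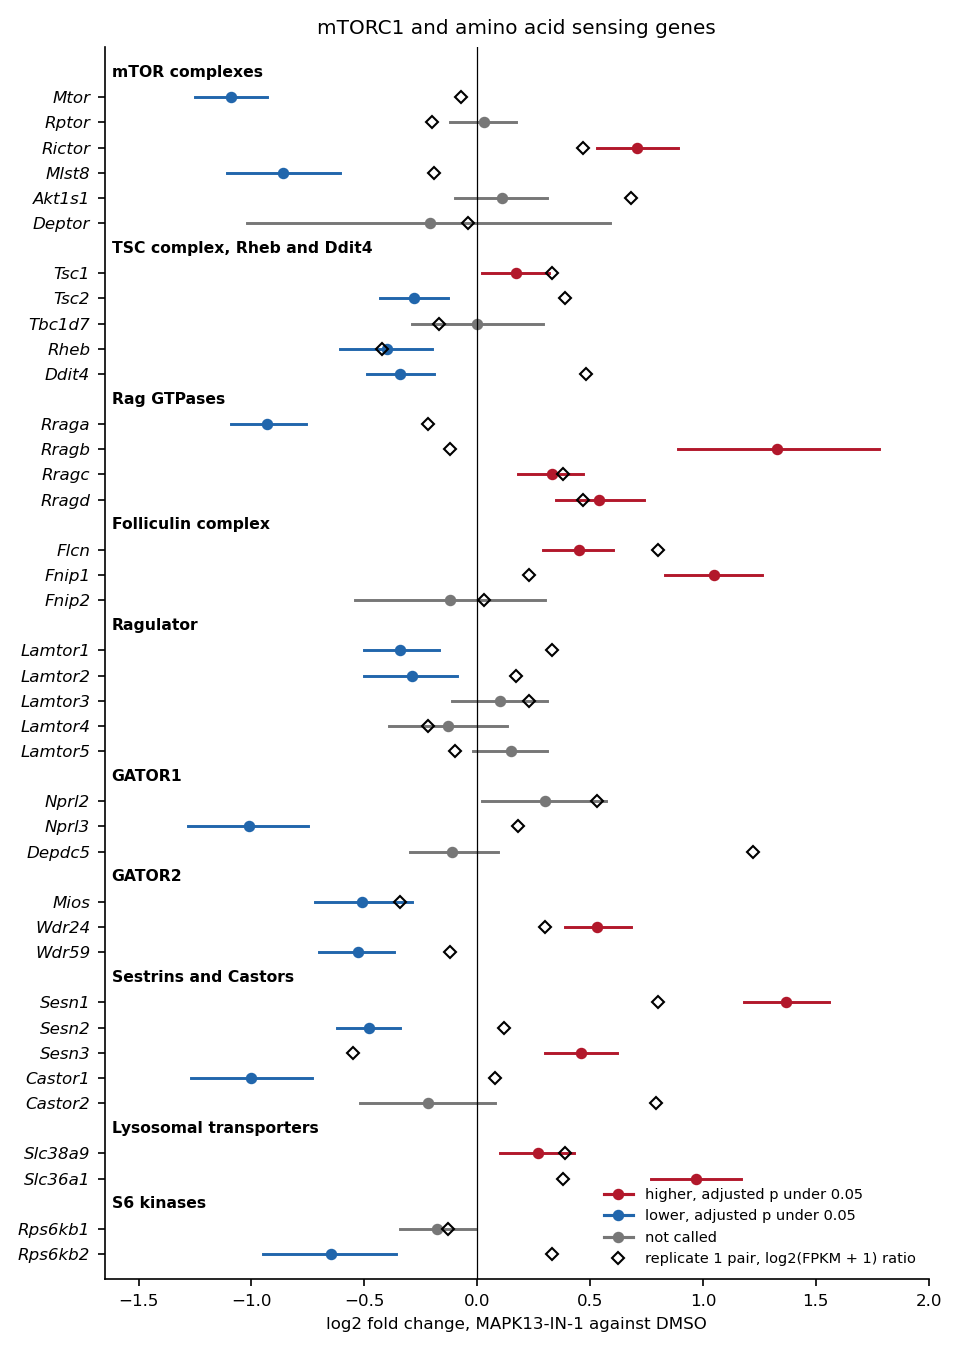
Log2 fold change of each member with its 95% interval (circles and bars, replicates 2 and 3, edgeR) and log2 ratio of the replicate 1 pair (open diamonds), grouped by complex. Sesn1 (1.37) and Rragb (1.33) lie farthest to the right and Mtor (−1.09) and Nprl3 (−1.01) farthest to the left.

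The promoters of 4 Rag and lysosome genes are shown first, because they share a sequence feature that the choice of members did not use. Rragb and Fnip1 are printed because they changed by more than 1 on the log2 scale, and Slc36a1 and Rragc were picked after their values were seen, so the shared direction of the 4 follows from the choice. CACGTG is the core of the CLEAR element, the E-box read by TFEB and related factors, and is also read by Myc and other E-box factors. It occurred in the window from 250 bases before to 50 after the annotated start in 8 of the 34 members with a window in the RefSeq promoter table of GRCm38.p6 (23.5%), and in 2349 of 32851 windows of all genes (7.15%). Among the 12606 genes tested that have a window, which like the members passed the filter on low counts, 1358 held it (10.8%). Upstream bases of the members were richer in G and C, with a median of 60% against 52.4% in all windows. The 8 genes were Rragb, Rragc, Fnip1, Slc36a1, Lamtor1, Lamtor4, Rheb and Tbc1d7. The stretches below run from 130 bases before to 3 bases after the start, 5′ to 3′ on the plus strand, with each CACGTG in capitals. The letters read the same on both strands.
Rragb, chrX:153139828-153139960: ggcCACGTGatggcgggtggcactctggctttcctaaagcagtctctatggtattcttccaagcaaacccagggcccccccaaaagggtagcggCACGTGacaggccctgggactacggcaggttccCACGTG
Fnip1, chr11:54438049-54438181: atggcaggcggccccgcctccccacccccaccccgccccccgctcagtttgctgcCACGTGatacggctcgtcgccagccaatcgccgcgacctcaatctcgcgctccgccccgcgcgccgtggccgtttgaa
Slc36a1, chr11:55204210-55204342: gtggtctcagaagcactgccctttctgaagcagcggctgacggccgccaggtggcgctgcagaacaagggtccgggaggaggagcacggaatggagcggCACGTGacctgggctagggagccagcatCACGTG
Rragc, chr4:123917303-123917435: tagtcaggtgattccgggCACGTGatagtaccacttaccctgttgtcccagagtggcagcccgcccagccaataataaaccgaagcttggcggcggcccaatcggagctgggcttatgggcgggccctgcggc

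Rragb carried 3 matches in this stretch, starting 127, 36 and 3 bases before the start site, and Slc36a1 carried 2, starting 31 and 3 bases before it. Fnip1 had 1 match, 75 bases before the start, and Rragc had 1, 112 bases before it. Of all 8 E-box-bearing members, these 4 were higher with MAPK13-IN-1, Rheb and Lamtor1 were lower, and Tbc1d7 and Lamtor4 were not called. Of the 26 members whose window lacks these letters, 7 were higher and 11 were lower. Over all genes tested with a window, 29.7% of the 1358 with CACGTG and 31.6% of the 11248 without it were higher, and 37.6% and 32.7% were lower. Presence of the letters is a description, not a binding site. Among the MiT/TFE genes that encode the CLEAR-binding factors, Tfeb itself was at 32.7 and 33.5 CPM in DMSO and 15.8 and 14.8 CPM with MAPK13-IN-1, a difference of −1.11 ± 0.0932 on the log2 scale (SE, edgeR adjusted p = 3.3e-06). In the replicate 1 pair its log2 ratio was −0.20. Tfe3, at 48.3 and 47.5 CPM in DMSO and 42.9 and 45.8 CPM with the inhibitor, was not called (−0.11). Mitf, at 15 to 45 counts per library, was lower (−1.09).

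**Figure D2:**
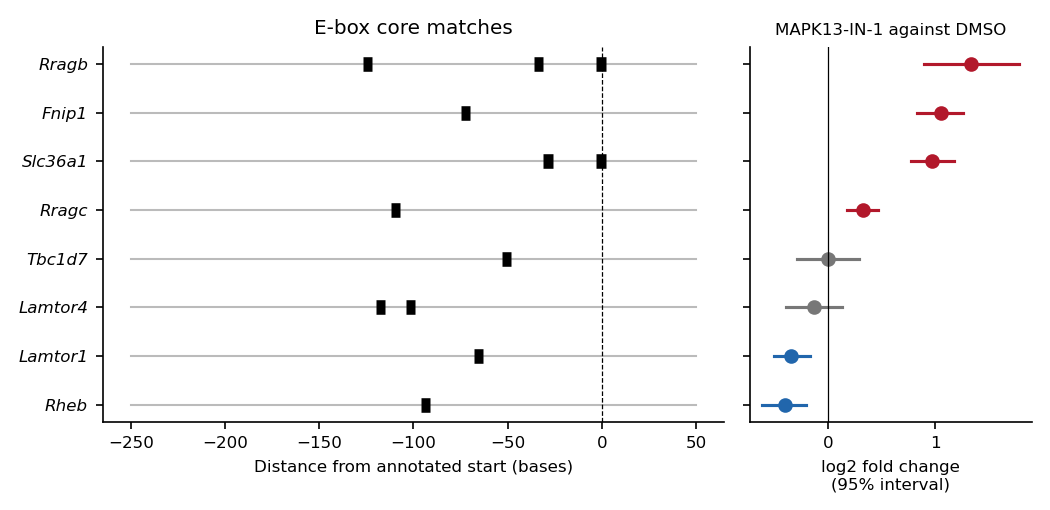
Left, positions of CACGTG in bases from the annotated start (dashed line) for the 8 members that carry it, and right, their log2 fold changes with 95% intervals (red higher, blue lower, grey not called). Genes run from Rragb (1.33) at the top to Rheb (−0.40) at the bottom.

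Further motifs were searched on both strands of the same windows. TGATGNAA, a C/EBP-ATF element read by ATF4, was found in Lamtor4 only, 1 of the 34 members with a window (2.94%, against 3.97% of all windows). ATCAAAG, read by Tcf1 and other TCF/LEF factors, was found in Lamtor5 and Slc38a9 (5.88% of members, against 3.73% of all windows). GTAAACA, read by FOXO factors, was found in Sesn1 only (2.94% against 3.65%). Sesn1 has 2 windows at separate starts, and the match lies in the first only. It falls 23 bases after that start, on the minus strand, and is shown because Sesn1 had the largest rise among the members. It is given on the plus strand with the match in capitals.
Sesn1, chr10:41810586-41810612: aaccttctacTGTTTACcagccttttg
In these windows, then, no motif other than CACGTG was found in more than 2 members. Over the genes tested with a window the shares were 2.94% for TGATGNAA, 3.10% for ATCAAAG and 3.21% for GTAAACA.

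The mTOR complexes were compared first. Mtor (chr4:148448611-148557683), the kinase shared by mTORC1 and mTORC2, was at 76.2 and 81.2 CPM in DMSO and 36.2 and 37.7 CPM with MAPK13-IN-1. Both treated libraries lay far below both DMSO libraries, with a log2 fold change of −1.09 ± 0.0724 (SE, edgeR adjusted p = 6.99e-07), which is 2.13-fold lower. Mlst8 (chr17:24473551-24479078), a subunit shared by the same complexes, was at 30.5 and 27.8 CPM in DMSO and 14.6 and 17.6 CPM with the inhibitor. It fell with a log2 fold change of −0.86 ± 0.113 (SE, edgeR adjusted p = 7.96e-05). Of the exon bases of Mlst8, 22.5% overlap Bricd5 on the opposite strand, a gene that did not pass the filter on low counts. Rictor (chr15:6708379-6800401), the defining subunit of mTORC2, rose from 115 and 99.0 CPM to 185 and 164 CPM, with a log2 fold change of 0.71 ± 0.083 (SE, edgeR adjusted p = 3.42e-05). The kinase and the mTORC2 subunit therefore moved in opposite directions. Rptor, the defining subunit of mTORC1, was at 66.3 to 67.3 CPM in DMSO and 67.0 to 69.3 CPM with the inhibitor. Its groups overlapped, and the interval of its log2 fold change ran from −0.12 to 0.17. The mTORC1 inhibitor genes Akt1s1 (0.11, interval −0.10 to 0.31) and Deptor (−0.21, interval −1.02 to 0.59) also did not pass, except Akt1s1 without MAPK13-IN-1 replicate 3 (0.19, against 0.01 without MAPK13-IN-1 replicate 2). Deptor rested on 21 to 30 counts per library.

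The Rag GTPases work as a RagA or RagB subunit paired with a RagC or RagD subunit. All 4 genes passed the test, beside 63.8% of all genes tested. Rraga (chr4:86575668-86577285) was at 65.0 and 65.8 CPM in DMSO and 35.5 and 33.3 CPM with MAPK13-IN-1. It was 1.90-fold lower, with a log2 fold change of −0.93 ± 0.0741 (SE, edgeR adjusted p = 2.37e-06). Its close paralog Rragb (chrX:153139981-153171943) was at 2.17 and 1.95 CPM in DMSO and 5.52 and 4.87 CPM with the inhibitor, from 53 to 196 counts. It was 2.52-fold higher, with a log2 fold change of 1.33 ± 0.199 (SE, edgeR adjusted p = 0.000188), so the pair moved in opposite directions in these libraries. Per length, Rraga remained the far more abundant of the pair. CPM per kilobase of annotated exon was 40.2 and 40.7 for Rraga and 0.961 and 0.864 for Rragb in DMSO, and 21.9 and 20.6 against 2.44 and 2.16 with the inhibitor. Their longest transcripts align over 873 bases with 82% identity, and the longest identical stretch in that alignment is 26 bases. Only a read lying wholly within such a stretch would match both there without a mismatch. Assignment of reads between the 2 genes was not tested. Rragd (chr4:32983037-33022180) rose from 31.3 and 29.2 to 46.7 and 41.6 CPM, with a log2 fold change of 0.54 ± 0.0892 (SE, edgeR adjusted p = 0.000354). Rragc, its paralog, rose by less, from 68.8 and 69.5 to 89.0 and 84.5 CPM, with a log2 fold change of 0.33 ± 0.0649 (SE, edgeR adjusted p = 0.00128). The difference between the changes of Rragc and Rragd was not tested. Of the exon bases of Rragc, 7.9% overlap a gene on the opposite strand.

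Folliculin (Flcn) with its partners Fnip1 and Fnip2 stimulates nucleotide hydrolysis on RagC and RagD. Fnip1 (chr11:54438199-54518235) was at 51.5 and 47.0 CPM in DMSO and 112 and 91.6 CPM with MAPK13-IN-1. The treated libraries differed from each other but both lay far above DMSO, a log2 fold change of 1.05 ± 0.0963 (SE, edgeR adjusted p = 6.15e-06), and without MAPK13-IN-1 replicate 2 the value was 0.90. Flcn rose from 47.6 and 47.7 CPM to 64.4 and 65.3 CPM, with a log2 fold change of 0.45 ± 0.0683 (SE, edgeR adjusted p = 0.000229). Fnip2 was at 4.42 and 5.18 CPM in DMSO and 4.96 and 3.90 CPM with the inhibitor, with overlapping groups and an interval of −0.54 to 0.30.

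Ragulator, the lysosomal anchor of the Rag proteins, changed little. Its 5 subunit genes had log2 fold changes between −0.34 and 0.15, with 2 lower, none higher and 3 not called. Lamtor1, which holds the lipid anchor of the complex, went from 57.6 and 58.2 CPM to 44.4 and 47.4 CPM, a log2 fold change of −0.34 ± 0.0727 (SE, edgeR adjusted p = 0.00222). Of its exon bases, 18.7% overlap Lrrc51 on the opposite strand, which was also lower (−1.24). Lamtor2, at 26.9 and 27.5 against 21.4 and 22.9 CPM, had a log2 fold change of −0.29 ± 0.0915 (SE, edgeR adjusted p = 0.0168), a call that was lost without either DMSO library, with upper-quartile (−0.21) or library-total (−0.17) scaling and with DESeq2 (−0.28). The values of Lamtor3, Lamtor4 and Lamtor5 were 0.10, −0.13 and 0.15. Lamtor5 passed as higher with upper-quartile (0.23) and library-total (0.27) scaling and with 10 counts in every library (0.19).

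**Figure D3:**
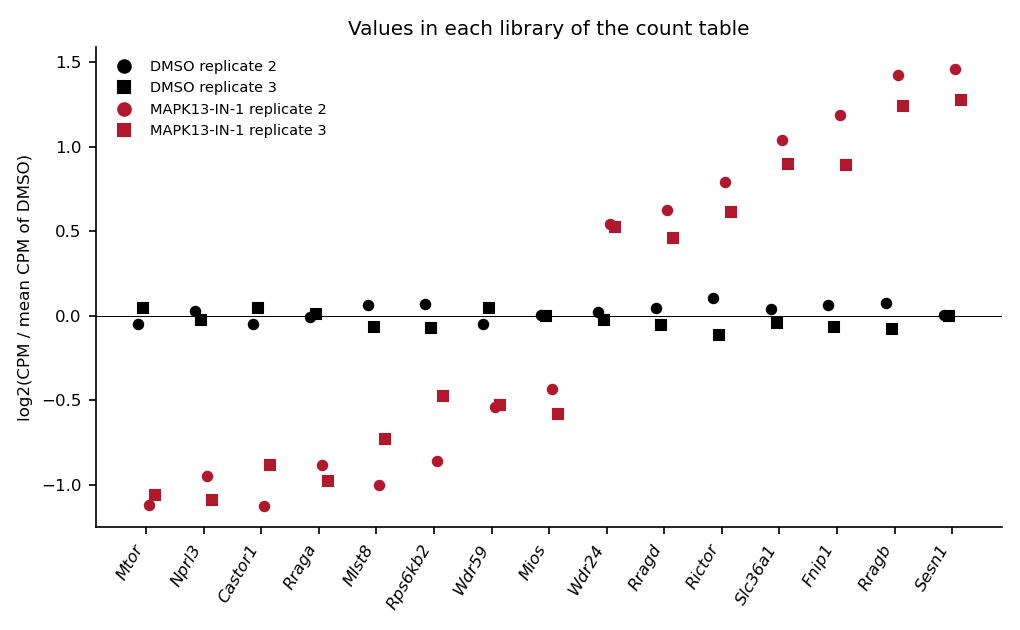
Values of the 15 members that passed the test and changed by at least 0.5 on the log2 scale, in each library of the count table, as log2 of CPM over the mean CPM of DMSO (black DMSO, red MAPK13-IN-1, circles replicate 2, squares replicate 3). In every one of these genes the groups do not overlap, beside 83.0% of all genes tested. The genes were chosen by the test on these same libraries, which favours such a separation.

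The GATOR complexes were compared next. In GATOR1, which inactivates RagA and RagB, Nprl3 (chr11:32225628-32267707) was at 16.5 and 15.9 CPM in DMSO and 8.40 and 7.61 CPM with MAPK13-IN-1. It fell with a log2 fold change of −1.01 ± 0.119 (SE, edgeR adjusted p = 3.48e-05). Mpg, which overlaps 17.7% of its exon bases on the opposite strand, was also lower (−0.35), and the alpha-globin genes Hba-a1 and Hba-a2, which lie 15.8 and 28.8 kb from Nprl3, were higher (4.15 and 3.98). The other subunits did not pass. Nprl2 was at 15 and 12.3 CPM in DMSO and 17.2 and 16.2 CPM with the inhibitor, a log2 fold change of 0.30 (edgeR adjusted p = 0.0553), and without DMSO replicate 2 or MAPK13-IN-1 replicate 3 it passed (0.43 and 0.33). Without DMSO replicate 3 its value was 0.15, and it passed with RLE (0.31), upper-quartile (0.38) and library-total (0.42) scaling and with 10 counts in every library (0.34). Depdc5 had overlapping groups and a value of −0.11, which was −0.23 and passed without MAPK13-IN-1 replicate 3, and was 0.00 without MAPK13-IN-1 replicate 2.

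In GATOR2, the complex that opposes GATOR1, Wdr24 (chr17:25823627-25828730) was at 52.7 and 51.0 CPM in DMSO and 75.5 and 74.6 CPM with MAPK13-IN-1. It rose with a log2 fold change of 0.53 ± 0.0669 (SE, edgeR adjusted p = 5.57e-05). Wdr59 (chr8:111448797-111522092) fell from 58.8 and 63.0 to 41.9 and 42.3 CPM, with a log2 fold change of −0.53 ± 0.0734 (SE, edgeR adjusted p = 0.000108). Mios (chr6:8209222-8236274) fell from 26.1 and 26.0 to 19.3 and 17.4 CPM, with a log2 fold change of −0.51 ± 0.098 (SE, edgeR adjusted p = 0.00106). Both treated libraries of Wdr59 and Mios lay below both DMSO libraries.

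The amino acid sensors upstream of GATOR2 also split. Sesn1 (chr10:41809935-41908424) encodes a Sestrin, a family of leucine-sensitive and stress-induced proteins that restrain mTORC1. It was at 24.6 and 24.5 CPM in DMSO and 67.6 and 59.4 CPM with MAPK13-IN-1, and its 2.59-fold rise was the largest among the members, with a log2 fold change of 1.37 ± 0.0875 (SE, edgeR adjusted p = 5.54e-07). Sesn2 fell from 259 and 279 to 185 and 200 CPM, with a log2 fold change of −0.48 ± 0.0628 (SE, edgeR adjusted p = 7.11e-05). Sesn3 rose from 67.6 and 75.8 to 99.3 and 97.7 CPM, with a log2 fold change of 0.46 ± 0.0713 (SE, edgeR adjusted p = 0.00025). The Sestrin transcripts share identical stretches of at most 23 bases in their alignments. In CPM per kilobase of exon, Sesn2 stayed the highest of the 3 in all 4 libraries (74.5 and 80.3 in DMSO, 53.2 and 57.6 with the inhibitor), while Sesn1 went from 6.18 and 6.15 to 17.0 and 14.9. Castor1 (chr11:4218225-4222409), a cytosolic arginine sensor, fell from 18.4 and 19.6 to 8.73 and 10.3 CPM, with a log2 fold change of −1.0 ± 0.122 (SE, edgeR adjusted p = 4.56e-05). Castor2, its paralog, was at 15.3 and 14.2 CPM in DMSO and 11.1 and 14.2 CPM with the inhibitor. It did not pass (−0.22, interval −0.52 to 0.08) except without MAPK13-IN-1 replicate 3, where its value was −0.41, and without MAPK13-IN-1 replicate 2 the value was −0.05.

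Both lysosomal transporters of the list were higher, beside 31.5% of all genes tested. Slc36a1 (chr11:55204350-55236330), a proton-coupled amino acid transporter, was at 22.0 and 20.7 CPM in DMSO and 43.9 and 39.8 CPM with MAPK13-IN-1, a 1.96-fold rise. Its log2 fold change was 0.97 ± 0.0913 (SE, edgeR adjusted p = 7.21e-06). Slc38a9, a lysosomal arginine sensor that binds Ragulator and the Rag proteins, went from 40.5 and 40.3 to 49.3 and 47.8 CPM, a log2 fold change of 0.27 ± 0.0739 (SE, edgeR adjusted p = 0.00921). The call on Slc38a9 was lost without either DMSO library.

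In the growth factor arm (the TSC complex, Rheb and Ddit4), log2 fold changes ran from −0.40 to 0.17. Rheb, the direct activator of mTORC1, fell from 36.2 and 33.8 to 28.0 and 25.0 CPM, with a log2 fold change of −0.40 ± 0.0923 (SE, edgeR adjusted p = 0.00321). Tsc2, the catalytic subunit of the TSC complex, fell from 70.8 and 68.9 to 56.1 and 59.0 CPM (log2 fold change −0.28 ± 0.0681, edgeR adjusted p = 0.00456). With library-total scaling Tsc2 did not pass (−0.15), and it was higher in the replicate 1 pair (log2 ratio 0.39). Of its exon bases 7.2% overlap Pkd1 on the opposite strand, which was not called (0.04). Tsc1, the stabilizing subunit, was at 63.6 and 67.7 CPM in DMSO and 74.3 and 73.3 CPM with MAPK13-IN-1. Its log2 fold change of 0.17 was barely past the threshold (edgeR adjusted p = 0.0486), and the call was lost without DMSO replicate 2 (0.11) or DMSO replicate 3 (0.21), with DESeq2 (0.18) and with no filter on low counts (0.17). Tbc1d7, the remaining TSC subunit, had a value of 0.00 with an interval of −0.29 to 0.29. Ddit4, a stress-induced inhibitor that acts through the TSC complex, was the most abundant member per length in DMSO. It went from 659 and 638 to 476 and 551 CPM, a log2 fold change of −0.34 ± 0.0675 (SE, edgeR adjusted p = 0.00137).

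The S6 kinases are mTORC1 substrates that phosphorylate ribosomal protein S6. Rps6kb2 (chr19:4153991-4163354) fell from 21.7 and 19.7 to 11.4 and 14.9 CPM, with a log2 fold change of −0.65 ± 0.134 (SE, edgeR adjusted p = 0.00156), and 23.7% of its exon bases overlap Ptprcap on the opposite strand. Ptprcap, at 218 and 228 CPM in DMSO, was itself lower (−0.75), and the strand used in counting is not given in the sources used here. Rps6kb1 was at 52.8 and 53.0 CPM in DMSO and 48.4 and 45.1 CPM with MAPK13-IN-1. It did not pass (−0.18, edgeR adjusted p = 0.0565) except without MAPK13-IN-1 replicate 2, where its value was −0.23.

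The replicate 1 pair, 1 library per group with no test, was set beside these values. Of the 12 members that were higher, 10 were also higher in the pair, and of the 14 that were lower, 6 were also lower. Over all genes called, the shares were 75.3% for higher and 56.8% for lower genes. Sesn1 went from 5.26 to 9.88 FPKM, Slc36a1 from 2.98 to 4.16, Rictor from 7.79 to 11.2, Rragd from 4.48 to 6.59 and Flcn from 9.27 to 16.9, all in the same direction as in the counts. Fnip1 showed a smaller difference, from 9.64 to 11.5 FPKM. Rragb, at 0.714 and 0.573 FPKM, was not higher there, nor was Sesn3, at 74.5 and 50.4 FPKM. Of the 8 members lower by at least 0.5, 5 were also lower in the pair, with log2 ratios between −0.34 and −0.07. Mtor was at 10.8 and 10.3 FPKM, Rraga at 34.9 and 29.7, Mlst8 at 7.48 and 6.46, Mios at 7.29 and 5.55 and Wdr59 at 15 and 13.7. Nprl3 (7.47 and 8.63 FPKM), Castor1 (19.0 and 20.2) and Rps6kb2 (8.27 and 10.6) were higher with the inhibitor, with log2 ratios of 0.18, 0.08 and 0.33. Ddit4 (86.9 and 121 FPKM, log2 ratio 0.48) and Sesn2 (54.3 and 59.0, log2 ratio 0.12) were also higher there. So were Tsc2 (9.71 and 13.1, log2 ratio 0.39), Lamtor1 (37.8 and 48.0, log2 ratio 0.33) and Lamtor2 (41.7 and 46.9, log2 ratio 0.17). Depdc5 had the largest ratio of the pair, 6.23 against 15.9 FPKM, and was not called in the counts. The batches also placed Sesn3 differently, the second most abundant member per length in DMSO replicate 1 but 27th of 38 by counts per kilobase of annotated exon in DMSO replicates 2 and 3. The library kit, the quantification and the culture cannot be told apart as sources of these differences.

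**Figure D4:**
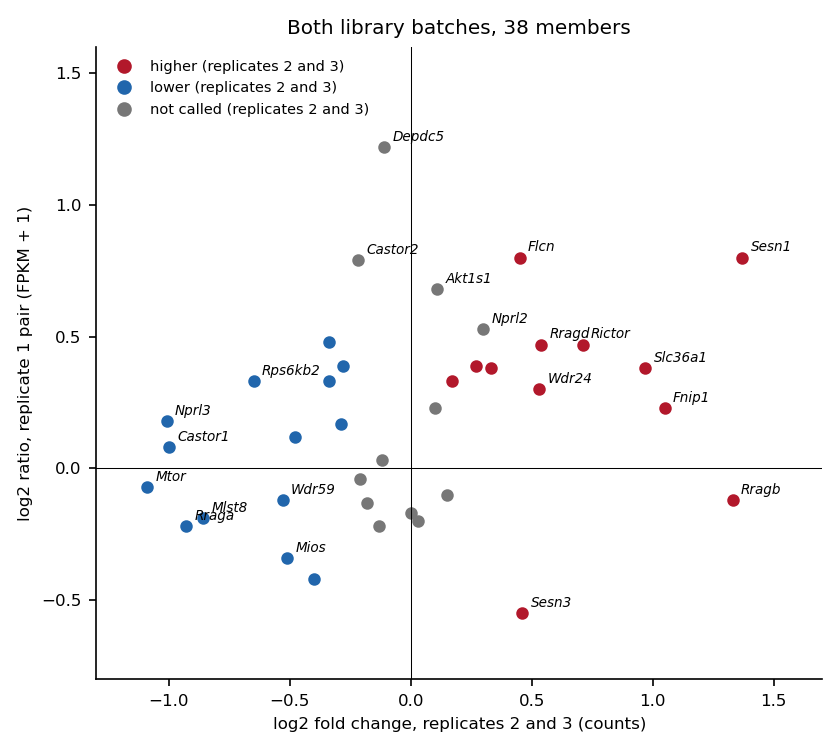
Log2 fold change of the 38 members in replicates 2 and 3 (horizontal) against the log2(FPKM + 1) ratio of the replicate 1 pair (vertical), with red, blue and grey for higher, lower and not called in replicates 2 and 3. Most red points lie above 0 on the vertical axis (10 of 12), whereas blue points lie on both sides (6 of 14 below).

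Genes of the pathway outside the members were counted in the same fit, from lists written with earlier results of these data known. The counts stand beside 31.5% higher and 32.3% lower among all genes tested. Of 5 further GATOR and KICSTOR genes found, 4 were lower and none was higher. Among them were Sec13 (log2 fold change −0.84) and Kptn (−1.20). Kptn encodes a subunit of KICSTOR, which tethers GATOR1 to the lysosome, and Sec13 is shared between GATOR2 and the nuclear pore. Of 8 genes for mTORC2 subunits and mTOR assembly factors, 6 were lower and 1 was higher, with a median of −0.49. Mapkap1, which encodes the mTORC2 subunit Sin1, fell from 49.2 and 53.7 to 14.4 and 17.3 CPM, with a log2 fold change of −1.70 ± 0.105 (SE, edgeR adjusted p = 4.27e-07). Among mTORC2-specific subunits Mapkap1 thus fell while Rictor rose. The chaperone and assembly genes Ruvbl2 (−0.55), Tti2 (−0.64) and Ruvbl1 (−0.43) were lower. Prr5, another mTORC2 subunit, was the 1 gene of that list that was higher (0.60). V-ATPase subunits, the proton pump that contacts Ragulator, split evenly in the counts, with 5 of 18 higher and 5 lower, whereas 15 were higher and 3 lower in the replicate 1 pair (median log2 ratio 0.43). The clearest were Atp6v1g1 (−1.11), Atp6v1e1 (0.52), Atp6v0e (0.44) and Atp6v0a2 (−0.48).

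Upstream of Rheb, 9 of the 21 PI3K, Akt and AMPK genes were higher and 4 were lower, beside 31.5% and 32.3% of all genes tested. Pik3r5, a regulatory subunit of PI3K gamma, rose with a log2 fold change of 1.20, and Prkab2, an AMPK subunit, with 0.99. Akt2 fell, with −0.90. Of 16 mTORC1 substrates and effectors, 4 were higher and 9 were lower, beside the same 31.5% and 32.3% of all genes. Their median was −0.26. Atg13, an autophagy initiation factor that mTORC1 phosphorylates, fell from 78.7 and 78.8 to 22.9 and 24.0 CPM (log2 fold change −1.75 ± 0.0741, edgeR adjusted p = 4.76e-08), but was 0.16 higher on the log2 scale in the replicate 1 pair. Grb10 rose (1.83), and Larp1 (−0.82) and Lpin1 (0.84) changed in opposite directions. Grb10 and Lpin1 encode mTORC1 substrates, a signaling adaptor and a phosphatidate phosphatase, and Larp1 represses translation of ribosomal protein mRNAs. Of 3 MiT/TFE genes tested, 2 were lower and none was higher.

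**Figure D5:**
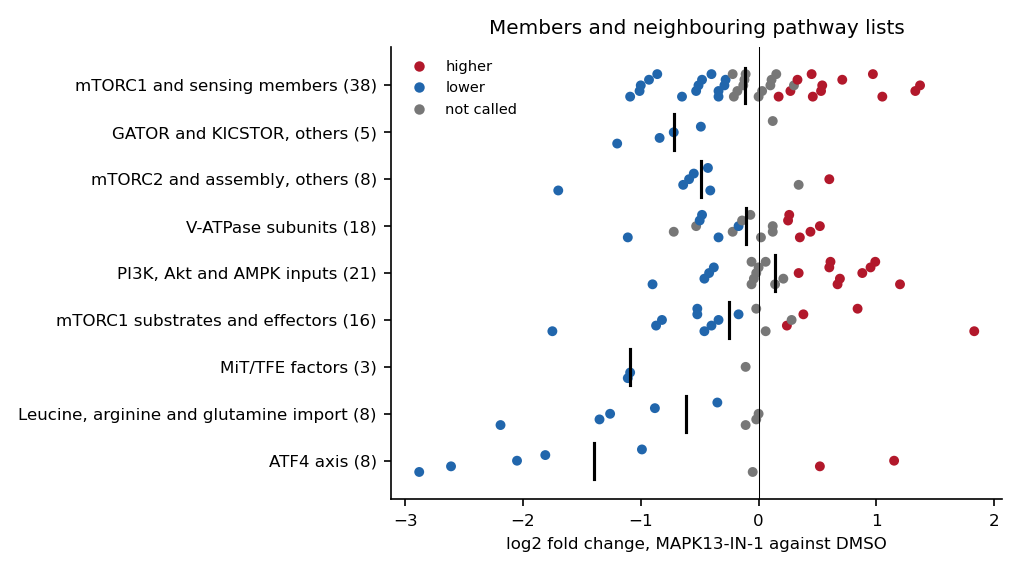
Log2 fold change of every tested gene of the members and of 8 neighbouring lists (points, with the number of genes in parentheses), coloured by call. Black bars are medians, −0.11 for the members and between −1.40 (ATF4 axis) and 0.14 (PI3K, Akt and AMPK inputs) for the other lists.

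Import genes and the ATF4 axis sit next to this machinery. Of 8 genes for leucine, arginine and glutamine import, 5 were lower and none was higher, beside 32.3% and 31.5% of all genes tested. Among the lower genes were Slc7a5 (−2.19), Slc1a5 (−1.35), Slc7a1 (−1.26) and Slc3a2 (−0.88). The same 4 genes were lower in the replicate 1 pair, with log2 ratios of −1.75, −0.85, −0.93 and −0.61. Of 8 ATF4 axis genes 5 were lower, among them Trib3 at −2.61, Ddit3 at −1.81, Asns at −2.05 and Chac1 at −2.88. The 2 that were higher, named after their values were seen, were the eIF2 alpha kinase genes Eif2ak3 (1.15) and Eif2ak4 (0.52). Sesn2 and Ddit4, members that are also known ATF4 targets, fell by 0.48 and 0.34 in the same libraries, beside a fall of Atf4 by 0.99. In the replicate 1 pair Atf4 had a log2 ratio of −1.07, whereas Ddit4 (0.48) and Sesn2 (0.12) were higher. The members therefore stood at smaller changes than the importers and the ATF4 axis genes of the same libraries, with a median absolute log2 fold change of 0.37 over the members, 0.62 over the importers and 1.48 over the ATF4 axis, and 0.52 over all genes tested. The difference between these lists was not tested.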

How the data were processed

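Libraries were grouped by the sample labels, 3 per group. For replicates 2 and 3 the authors deposited whole-number counts per gene (mm10). The submitters' processing notes name fastp 0.21.0, HISAT2 2.1.0, StringTie 2.1.5 and DESeq2 1.30.1 without their roles, so the counts may be estimates from coverage. The replicate 1 tables, as deposited, hold 1 normalized value for each of 34714 genes, read here as FPKM from the values alone. Sums were 405150 and 390729, and their depth is unknown.

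Differences were fitted with edgeR 4.0.16 (R 4.3.3). Genes passing filterByExpr (minimum count 10, minimum total 15) were scaled by TMM (factors 0.955 to 1.05) and compared, 2 libraries against 2 without covariates, by the quasi-likelihood test with Benjamini-Hochberg adjustment over all 16269 genes. The script was tested on simulated data. Replicates differed by more than sampling noise (mean chi-square per gene 3.08 and 9.6). A pseudocount of 1 was used for log2 FPKM ratios, which understate changes of low genes. Members, lists and groupings were chosen with earlier results of these data known. All members are named, with values in every library where the absolute log2 fold change was at least 0.5, and at most 4 genes of each list, those with the smallest p-values. Some genes of the lists are counted but not reported singly here. Gene positions, exon overlaps and lengths came from GENCODE M21 (GRCm38). Alternatives were RLE, upper-quartile and library-total scaling, no filter, 10 counts in every library, a replicate block, DESeq2 1.42.0, an adjusted p of 0.01 and leaving out each library.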

Additional observations from a re-analysis of the deposited data

How the results depend on the processing

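Of the 38 members, 26 kept their direction and their side of the threshold under all alternatives run, among them Mtor, Rictor, Mlst8, all 4 Rag genes, Fnip1, Nprl3, the 3 Sestrins, Castor1 and Slc36a1. The number of members higher ranged from 10 to 14 and lower from 12 to 16. Scaling by library totals moved the median log2 fold change of all genes tested from 0.01 to 0.14 and that of the members to 0.01, and raised the share of higher genes among all calls from 49.4% to 58.9%. Under it Tsc2 (−0.15) and Lamtor2 (−0.17) did not pass. The calls on Tsc1, Tsc2, Lamtor2 and Slc38a9 were lost under at least 1 alternative, and 6 members gained a call under at least 1. Signs reversed for 3 uncalled members. Tbc1d7 (0.00) was 0.01 with RLE, 0.08 with upper-quartile factors, 0.12 with library totals, 0.04 with 10 counts in every library, 0.01 with DESeq2, and up to 0.08 with 1 library left out (lowest −0.10). Fnip2 was 0.01 and Depdc5 0.02 with library totals, and Fnip2 ranged from −0.30 to 0.04 with 1 library left out. The median log2 ratio of the members in the replicate 1 pair was 0.20 (0.07 over all genes tested), or 0.22 with a pseudocount of 0.1 and 0.23 over the 35 members with at least 1 FPKM in both libraries. Same-numbered libraries did not deviate together (correlation −0.01 across genes), so the numbers are not read as pairs. With the replicate number as a block 13 members were higher and 14 lower, Nprl2 (0.30) being the added call. The depth limits Deptor and Rragb most.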
